A study of Rattus norvegicus with 6 samples.

Results

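The 10 genes described here are the FOS genes Fos, Fosb, Fosl1 and Fosl2, the JUN genes Jun, Junb and Jund, the EGR genes Egr1 and Egr2, and Ier2. They were chosen by symbol, and their counts were summed per gene. Of the 10 members 9 were among the 21553 genes named in the deposited table, in 10 transcript rows. No named row carried the symbol Ier2, so it was not analysed here. Of the 9, Fosl2 stayed below the low-count filter, and 8 were tested among 13363 genes.

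RNA was sequenced from INS-1, an insulin-secreting line derived from a rat insulinoma, at passages between 7 and 15. The 3 INS-SMA cultures (genotype SMA overexpression) carried a lentiviral gene for α-SMA, the smooth muscle actin encoded by ACTA2, and the 3 INS-MOCK cultures had the genotype wild type. The series calls the 3 libraries of each group biological replicates. The labels do not give the promoter of the lentivirus, whether INS-MOCK cells received a virus, the time after transduction or whether a group was a single clone.

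Immediate early genes are transcribed within minutes of a stimulus, without new protein synthesis, by factors already present in the cell, and their mRNAs are usually short-lived. FOS and JUN proteins are basic leucine zipper factors that pair to form AP-1. JUN proteins can pair with each other, whereas FOS proteins need a partner such as JUN, and EGR proteins are zinc finger factors that bind GC-rich DNA. In beta cells FOS, JUN and EGR genes are known to respond to glucose, calcium, cyclic AMP and growth factors.

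The promoters of Egr1, Egr2 and Junb are shown first, because these genes rose, together with that of Jund, whose counts were erratic. They are RefSeq sequences of build GRCr8, 250 bases up to the base before the annotated gene start, and 8 of the 10 members had such a sequence. Fos and Jun had none. Capitals mark CArG boxes, the sites of serum response factor, and the letters ACGTCA or their complement TGACGT, the core of the cyclic AMP response element. Egr1 lies at chr18:26736828-26737077 on the plus strand, Egr2 at chr20:21054442-21054691 on the minus strand, Junb at chr19:40080876-40081125 on the plus strand and Jund at chr16:18769772-18770021 on the minus strand, and each is written 5′ to 3′ in the direction of transcription.
Egr1: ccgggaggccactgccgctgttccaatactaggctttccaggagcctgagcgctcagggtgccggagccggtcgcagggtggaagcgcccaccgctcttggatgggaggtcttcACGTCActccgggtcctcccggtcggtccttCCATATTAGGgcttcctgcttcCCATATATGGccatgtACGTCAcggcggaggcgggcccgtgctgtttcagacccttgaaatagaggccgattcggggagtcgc
Egr2: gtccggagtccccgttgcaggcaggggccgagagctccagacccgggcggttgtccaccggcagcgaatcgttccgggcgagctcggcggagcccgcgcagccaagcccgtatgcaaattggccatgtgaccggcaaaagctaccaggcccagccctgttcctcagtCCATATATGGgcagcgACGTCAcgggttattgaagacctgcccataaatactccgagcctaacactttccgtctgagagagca
Junb: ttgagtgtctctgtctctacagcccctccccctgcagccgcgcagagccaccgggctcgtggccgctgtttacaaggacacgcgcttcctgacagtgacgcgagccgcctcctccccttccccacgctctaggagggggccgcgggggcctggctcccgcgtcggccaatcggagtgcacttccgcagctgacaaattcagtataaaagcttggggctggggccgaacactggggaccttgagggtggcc
Jund: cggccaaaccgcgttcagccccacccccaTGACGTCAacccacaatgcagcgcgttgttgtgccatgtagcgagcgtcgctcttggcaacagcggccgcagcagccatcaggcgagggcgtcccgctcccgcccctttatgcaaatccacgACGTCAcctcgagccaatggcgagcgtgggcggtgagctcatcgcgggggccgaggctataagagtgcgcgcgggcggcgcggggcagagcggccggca

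Egr1 held 2 CArG boxes and Egr2 held 1. The box CCATATATGG stood 83 to 74 bases before the start in both genes, and a core ACGTCA stood 67 to 62 bases before the start in both. In all 33469 promoter sequences, searched over the same 250 bases on both strands, 1.5% held a CArG box, 6.95% held the core and 0.0747% held both. Jund held 3 matches to the core, of which 2 overlap in the palindrome TGACGTCA, and no CArG box. The Jund sequence was 68.4% G or C, against a median of 51.2% over all sequences. It also held 3 matches to GCGNGGGCG, searched here as the EGR element with any base at N, which 4.29% of all sequences held. These matches were GCGAGGGCG, GCGTGGGCG and GCGCGGGCG. Each of 2 of them overlaps a match to GGGCGG, the SP1 box, which 30.5% of sequences held. Junb, which rose as well, held no match to any of the 5 motifs searched, and neither did Fosb. Ier2 held the same palindrome as Jund. None of the 8 sequences held TGANTCA, the AP-1 element, found in 6.34% of all sequences. These are letter matches in a window, and binding was not measured.

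**Figure D1:**
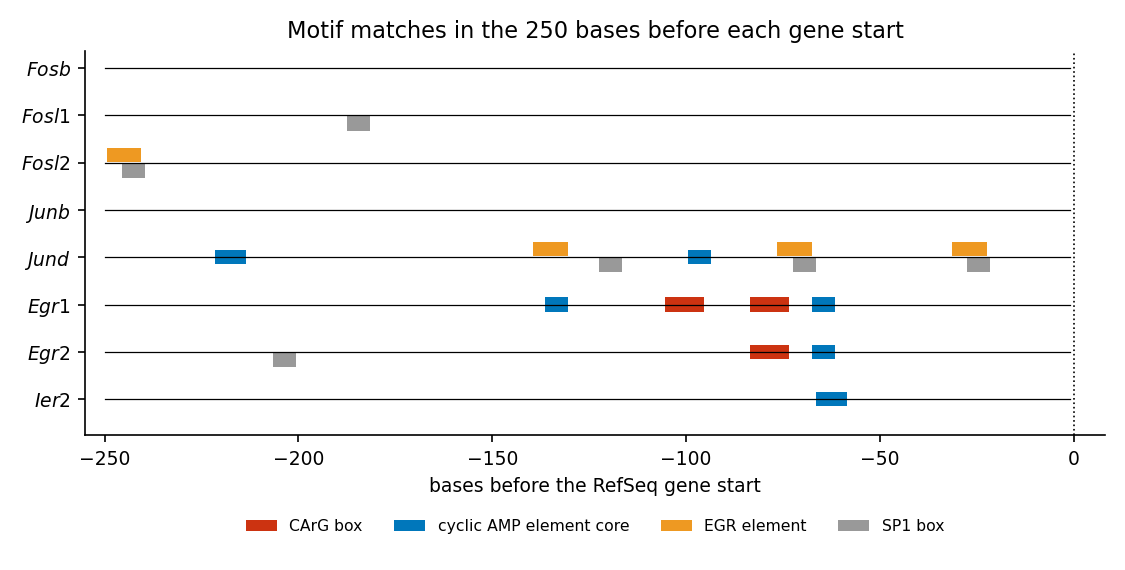
Positions of motif matches in the 250 bases before the RefSeq gene start of 8 members, with distance in bases on the horizontal axis. The CArG box 83 to 74 bases and the cyclic AMP core 67 to 62 bases before the start line up in Egr1 and Egr2.

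The libraries held 24719503 to 39608609 counts. Rows with no gene name held 32.7% to 36.7% of them and were left out, and reads of a member that fell in such rows are missing from its value. The label check held: the ACTA2 sequence, a reference entry of its own, was at 4.62 to 7.14 CPM (counts scaled to a normalised library of 1000000) in INS-MOCK and at 44302 to 56545 CPM in INS-SMA. Ins1 transcripts were present in every library and were lower in INS-SMA (1505 ± 182 CPM, SD, n = 3) than in INS-MOCK (22960 ± 895 CPM). A call was common, since 55.1% of the 13363 genes had an edgeR quasi-likelihood adjusted p under 0.05, 28.1% with a rise and 27.0% with a fall. Of 8 beta cell markers 6 fell. Fewer cells expressing a gene and less RNA per cell cannot be told apart in such bulk libraries. Of 8 markers of immune and endothelial cells 4 were in the named rows, with a summed level of 0.124 to 1.12 CPM in INS-MOCK and 1.79 to 2.40 CPM in INS-SMA. In the summed level of 6 fibroblast markers the range was 13.7 to 16.9 and 11.7 to 13.2 CPM. For 2 acinar and duct markers it was 9.14 to 20.7 and 5.41 to 6.01 CPM. None of the named markers was at 0 in all 6 libraries, and markers within a list differed in direction. Among immune and endothelial markers Ptprc (CD45) had 0 summed counts in INS-MOCK and 94 in INS-SMA and rose, Cdh5 had 0 and 6, Cd68 had 39 and 21, and Kdr had 10 and 5. Among fibroblast markers Pdgfra, which made up most of the sum, fell from 15.3 to 8.24 CPM, and Col3a1 rose from 0.070 to 2.84 CPM. The other fibroblast markers were below the low-count filter: Col1a1 had 4 and 42 summed counts, Lum 0 and 27, Dcn 0 and 17, and Col1a2 0 and 4. Of the acinar and duct markers Sox9 fell from 14.7 to 5.55 CPM and Prss1 had 0 and 5 summed counts. These marker genes are named with their values seen. The part of such cells in the results was not tested.

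Of the 8 tested members 4 rose, namely Egr1, Jun, Junb and Egr2, where 28.1% of all tested genes rose. None passed the test in the lower direction with edgeR or with DESeq2, where 27.0% of all tested genes fell with edgeR. At an unadjusted p under 0.05 with edgeR 1 (Fosb) was lower. The share of all tested genes at that unadjusted level was not computed. The median log2 fold change of the 8 was 1.38, against 0.03 over all tested genes. It fell in a gap between Fos (0.55) and Egr2 (2.21), and the values of Fosb, Fosl1 and Jund were negative. The groups did not overlap in 5 members that were higher and 1 that was lower, where 33.5% and 31.9% of tested genes did so (65.3% in either direction). With DESeq2 5 members rose, Fos being added. DESeq2 also called more of all tested genes higher than edgeR did. The count of 5 is therefore not to be read against the 28.1%, which is the share with edgeR.

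**Figure D2:**
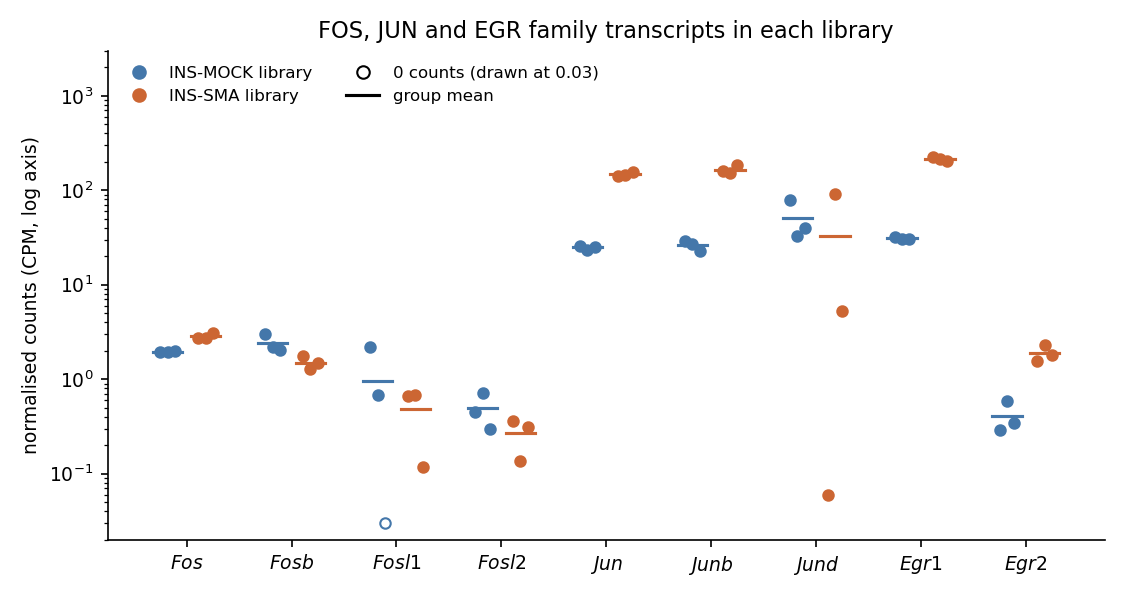
Normalised counts (CPM, log axis) of the 9 members with a named row, with 1 point per library and a bar at the mean of each group of 3. Jun, Junb, Egr1 and Egr2 lie higher in all 3 INS-SMA libraries, while Jund spreads from 0.0601 to 92.2 CPM within INS-SMA.

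Egr1, a zinc finger factor that is often taken as a readout of MAP kinase and calcium signalling, had the largest log2 fold change of the tested members. Its level was 32.3, 30.4 and 30.4 CPM in the INS-MOCK libraries and 224, 216 and 202 CPM in the INS-SMA libraries. Each INS-SMA library was several times above every INS-MOCK library, and the replicates lay close together. The gene (ENSRNOG00000019422, chromosome 18, 27657628 to 27661429, plus strand) rose by 2.78 in log2 units (SE 0.057, edgeR adjusted p = 4.09e-06), which is 6.89-fold.

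Jun, the founding JUN protein, is activated by JUN N-terminal kinases and can drive its own promoter. It was at 26.0, 23.5 and 24.8 CPM in INS-MOCK and at 142, 144 and 158 CPM in INS-SMA. The groups were far apart relative to the spread within them. The gene (ENSRNOG00000026293, chromosome 5, 114011189 to 114014277, minus strand) rose by 2.58 in log2 units (SE 0.067, edgeR adjusted p = 6.42e-06).

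Junb, a JUN protein with weaker activation in many settings, stood at 28.8, 27.1 and 23.0 CPM in INS-MOCK and at 159.8, 152 and 186 CPM in INS-SMA. The groups did not overlap here either. The gene (ENSRNOG00000042838, chromosome 19, 26092974 to 26094756, minus strand) rose by 2.66 in log2 units (SE 0.12, edgeR adjusted p = 2.65e-05). That position is from the deposited table, whereas the promoter printed above, on the plus strand, is placed in build GRCr8. Why the strands differ was not tested.

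Egr2, known for its role in myelination and in the hindbrain, had few reads, with 7, 13 and 8 counts in the INS-MOCK libraries and 26, 50 and 46 in the INS-SMA libraries, or 0.289 to 0.583 and 1.56 to 2.29 CPM. Every INS-SMA library was above every INS-MOCK library, at counts where counting error is large. The gene (ENSRNOG00000000640, chromosome 20, 22454463 to 22459025, minus strand) rose by 2.21 in log2 units (SE 0.36, edgeR adjusted p = 0.00349). Its calls and those of Egr1, Jun and Junb were kept under all 14 alternative settings run.

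The 95% intervals of the log2 fold change were 2.64 to 2.93 for Egr1, 2.41 to 2.75 for Jun, 2.35 to 2.96 for Junb and 1.30 to 3.11 for Egr2, and they overlap. By size of log2 fold change Egr1 ranked 771, Junb 823, Jun 866 and Egr2 1062 among the 13363 tested genes. Each was above more than 92.0% of them, and many other genes rose by more.

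**Figure D3:**
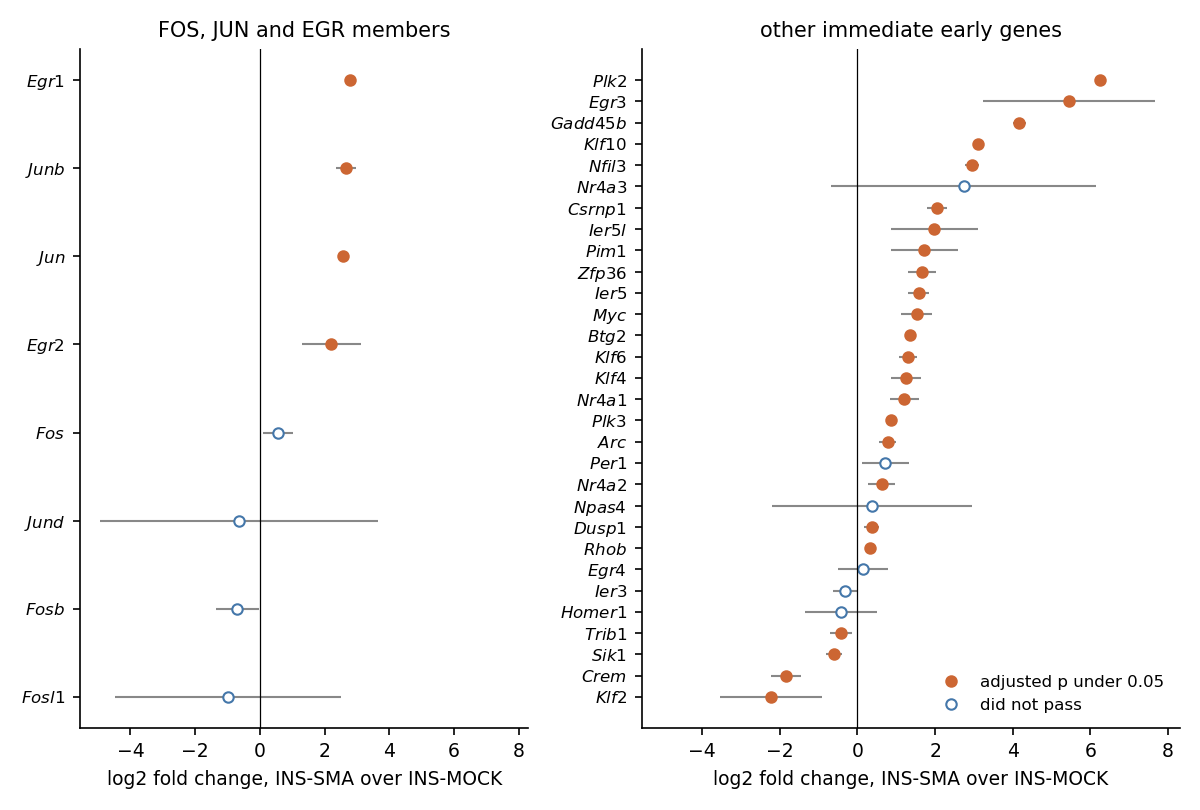
Log2 fold changes of INS-SMA over INS-MOCK with 95% intervals for the 8 tested members (left) and 30 other immediate early genes (right). Filled points had an edgeR adjusted p under 0.05; Egr1, Junb, Jun and Egr2 lie between 2.21 and 2.78, and Fos at 0.55 did not pass.

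Fos, the founding member of its family and a classical partner of JUN, had few reads in both groups, with 47, 43 and 46 counts in INS-MOCK and 45, 60 and 80 in INS-SMA, or 1.94, 1.93 and 1.97 CPM and 2.70, 2.75 and 3.11 CPM. The groups did not overlap, but the difference was small. The log2 fold change was 0.55 (SE 0.19, 95% interval 0.09 to 1.02) and the edgeR adjusted p was 0.0505, just outside the threshold. Over the alternatives that p ranged from 0.0287 with DESeq2 to 0.152. It passed in 5 of 14, and the log2 fold change lay between 0.49 and 0.65. The gene is ENSRNOG00000008015 (chromosome 6, 109300433 to 109303299, plus strand).

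Fosb, whose shorter splice form is known to be long-lived in neurons, was at 3.01, 2.20 and 2.05 CPM in INS-MOCK and at 1.74, 1.28 and 1.48 CPM in INS-SMA. All INS-SMA libraries were below all INS-MOCK libraries. The log2 fold change was -0.69 (SE 0.26) and did not pass the test (adjusted p = 0.0705 by edgeR). The gene (ENSRNOG00000046667, chromosome 1, 80214494 to 80221710, minus strand) was the only member with more than 1 named row, and its counts moved between these rows from library to library. Row ENSRNOT00000091687 had 64, 5 and 2 counts in INS-MOCK and 4, 28 and 38 in INS-SMA. Row ENSRNOT00000072149 had 9, 44 and 46 in INS-MOCK and 25, 0 and 0 in INS-SMA. Each row was high in libraries of both groups, so neither separated them, and in the most abundant row alone the log2 fold change was 0.09 (adjusted p = 0.963).

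Fosl1 (FRA-1), a FOS protein that lacks a strong activation domain and is often raised in invasive cells, had 53, 15 and 0 counts in INS-MOCK and 11, 15 and 3 in INS-SMA. The groups overlapped and INS-MOCK replicate 1 held most of the counts of its group. The log2 fold change was -0.99 (95% interval -4.47 to 2.50, edgeR adjusted p = 0.59), and 0.53 without that library. Fosl2 (FRA-2), its close relative, had 11, 16 and 7 counts in INS-MOCK and 6, 3 and 8 in INS-SMA. The Fosl2 groups overlapped too, and with no low-count filter its log2 fold change was -0.86 (edgeR adjusted p = 0.308). At 3 counts per library a gene stands at 0.117 to 0.180 CPM, and both genes had libraries near that level.

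Jund, the JUN protein that is usually present in resting cells, had 1897, 740 and 930 counts in INS-MOCK and 1, 2010 and 136 in INS-SMA. The INS-SMA libraries thus covered the whole range from near 0 to the highest Jund value in the data, and they overlapped with INS-MOCK. The log2 fold change was -0.63 with a 95% interval of -4.93 to 3.67 (edgeR adjusted p = 0.786), and -4.20 without INS-SMA replicate 2 (adjusted p = 0.0888). It was -0.17 without INS-MOCK replicate 1, -0.05 without INS-SMA replicate 1 and -0.13 without INS-SMA replicate 3, and DESeq2 gave no p for it. In the same 3 INS-SMA libraries Jun was at 142, 144 and 158 CPM and Junb at 159.8, 152 and 186 CPM. The gene is ENSRNOG00000019568 (chromosome 16, 20485029 to 20486707, minus strand).

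Jun, Junb and Jund are genes without introns, so their levels can be set side by side per kilobase of annotated gene (3089, 1783 and 1679 bases). On that scale Jun was at 8.03 ± 0.40 CPM per kilobase in INS-MOCK and at 48.0 ± 2.76 in INS-SMA (SD, n = 3). Junb was at 14.7 ± 1.67 and 93.0 ± 9.78 CPM per kilobase, above Jun in all 6 libraries. Jund was at 46.7, 19.8 and 23.7 CPM per kilobase in INS-MOCK, the highest of the 3 genes in each library. In INS-SMA it was at 0.0358, 54.9 and 3.15, below Junb in each library and above Jun only in replicate 2. Of the summed level of the 3 genes, Jund made up 46.4% to 65.5% in INS-MOCK and 0.0264% to 29.4% in INS-SMA. Any Jund reads in rows without a gene name are missing from these levels and shares, which was not tested. The share moves with Jun and Junb, which rose: in INS-SMA replicate 2 Jund had its highest level of the 6 libraries and still made up 29.4%. Junb made up 22.7% to 35.7% and 45.7% to 66.0%.

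**Figure D4:**
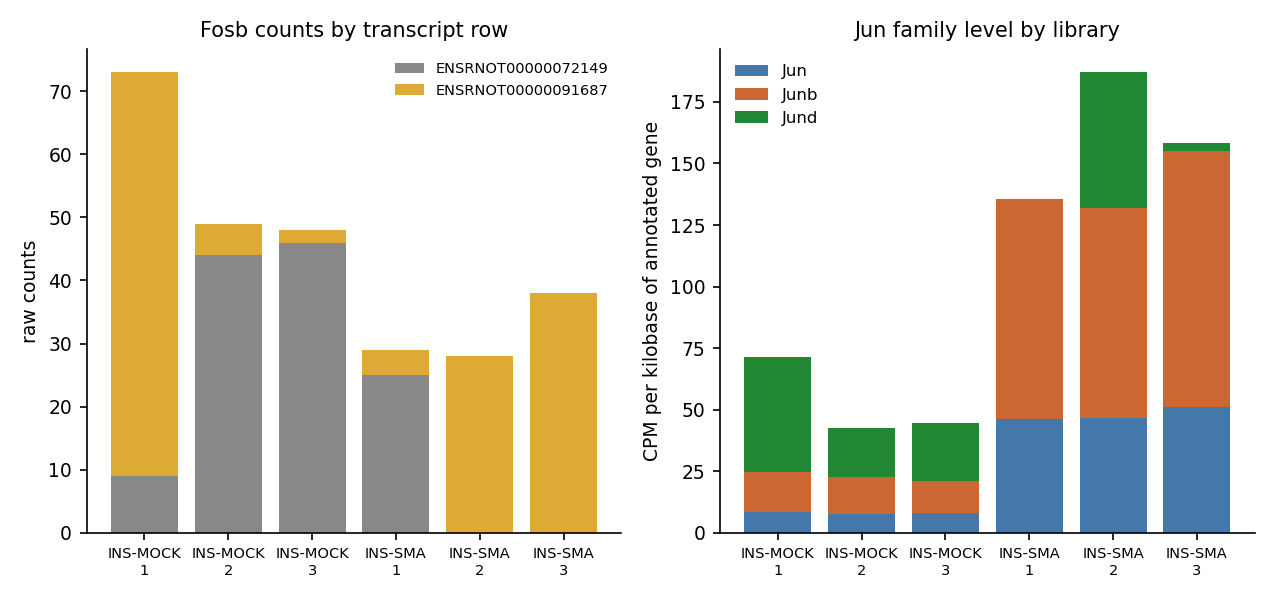
Left, raw counts of Fosb in each library, split over its transcript rows. Right, levels of Jun, Junb and Jund in CPM per kilobase of annotated gene, stacked by library: Jun and Junb are higher in all 3 INS-SMA libraries, and Jund is at 0.0358, 54.9 and 3.15 in INS-SMA replicates 1 to 3.

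Ratios of counts within a library do not depend on library size or scaling, and 7 such ratios were compared. They are not corrected for gene length, so only their change between groups is read. That change restates the fold changes of the paired genes given above and is not a separate result. Junb over Jun was 1.11, 1.15 and 0.93 in INS-MOCK and 1.12, 1.06 and 1.17 in INS-SMA, so these genes kept nearly the same ratio while both rose. The difference was 0.08 on the log2 scale (exact two-sided permutation p = 0.6). Egr1 over Jun was 1.25 ± 0.035 in INS-MOCK and 1.45 ± 0.15 in INS-SMA (SD, n = 3, exact permutation p = 0.2). By contrast, Jun over Fos was 13.4, 12.2 and 12.6 in INS-MOCK and 52.6, 52.4 and 50.8 in INS-SMA, a difference of 2.03 on the log2 scale with no overlap. Egr1 over Fos went from 16.0 ± 0.61 to 75.4 ± 9.34 (SD, n = 3), and Fos over Fosb from 0.827 ± 0.16 to 1.93 ± 0.33. For these 3 ratios the exact permutation p was 0.1, the smallest that 3 against 3 can give, and 0.233 adjusted over the 7. Egr1 over Junb and Egr1 over Egr2 overlapped between groups, with differences of 0.12 and 0.52 on the log2 scale (exact permutation p = 0.4 and 0.2).

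**Figure D5:**
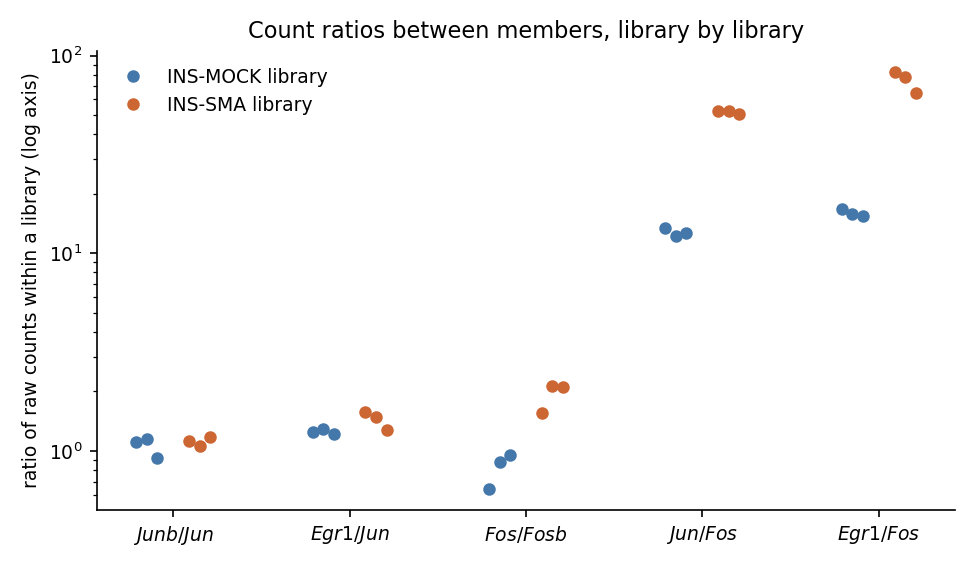
Ratios of raw counts between members within each library (log axis), with 3 INS-MOCK and 3 INS-SMA libraries per ratio. Junb over Jun stays between 0.926 and 1.17 in all 6 libraries, while Jun over Fos lies between 12.2 and 13.4 in INS-MOCK and between 50.8 and 52.6 in INS-SMA.

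Other immediate early genes were examined as a list of 33, of which 30 were tested. Of these 20 rose and 4 fell in edgeR's test, with a median log2 fold change of 1.23, where 28.1% and 27.0% of all tested genes rose and fell around a median of 0.03. Plk2, a polo-like kinase, rose from 8.37 ± 0.31 to 633 ± 5.29 CPM (SD, n = 3), and Klf10, an early TGF-beta-inducible repressor, from 281 ± 8.62 to 2411 ± 44.3 CPM. Gadd45b, a growth arrest and stress gene, rose by 4.16 on the log2 scale, and Nfil3, a bZIP repressor, by 2.96 (1.90 in its most abundant row alone). Csrnp1 (2.05), Ier5 (1.58), Btg2 (1.36) and Plk3 (0.88) rose as well.

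The next genes were chosen after their values were seen. The EGR relative Egr3 had 0, 2 and 0 counts in INS-MOCK and 29, 33 and 32 in INS-SMA (1.74, 1.51 and 1.24 CPM). The ratio of summed counts, scaled for library size, was 51.2 (95% interval 13.8 to 429, counting error only). The fitted log2 fold change of Egr3, 5.45 (edgeR adjusted p = 0.00342), was 8.07 without INS-MOCK replicate 2, which held both counts. Egr4 was at 1.95 ± 0.42 CPM in INS-MOCK and 2.16 ± 0.33 in INS-SMA (SD, n = 3), and did not pass the test (log2 fold change 0.15, edgeR adjusted p = 0.664). The nuclear receptor genes Nr4a1 (1.21) and Nr4a2 (0.63) and the growth gene Myc (1.52) rose. Nr4a3 had a log2 fold change of 2.74 and did not pass (adjusted p = 0.147), and passed without INS-MOCK replicate 3, where it had 0 counts (2.15, adjusted p = 6.64e-04). For Nr4a2 the most abundant row alone gave 0.15 (adjusted p = 0.794). The 4 genes that fell were Klf2 (-2.23), the cyclic AMP-responsive repressor gene Crem (-1.85), the CREB-induced kinase gene Sik1 (-0.60) and Trib1 (-0.42). Klf2 and Trib1 lost their calls without INS-SMA replicate 1 (adjusted p = 0.0514 and 0.0626) or INS-SMA replicate 2 (0.0533 and 0.0715), Klf2 was at -1.57 without INS-MOCK replicate 1, and Trib1 also without INS-MOCK replicate 1 (0.0584) or 2 (0.0661) and in its most abundant row alone.

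Of 13 further bZIP genes whose proteins can pair with FOS or JUN, 9 were tested. Of these 6 rose and 2 fell, where 28.1% of all tested genes rose and 27.0% fell. Their median log2 fold change was 1.16. Atf3, a stress-induced partner of JUN, was at 11.7, 9.95 and 10.0 CPM in INS-MOCK and at 653, 632 and 605 CPM in INS-SMA, a rise of 5.90 in log2 units (SE 0.091, edgeR adjusted p = 2.52e-06). Jdp2, a repressing partner of JUN, rose from 1.89 ± 0.58 to 27.8 ± 1.97 CPM (SD, n = 3). Atf4 (1.20) and Mafk (0.94) rose too.

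Among 18 genes for factors that act on immediate early promoters, 16 were tested. Of these 7 rose and 1 (Ets1) fell, where 28.1% of all tested genes rose and 27.0% fell. Their median log2 fold change was 0.26. Mef2c, a MADS box factor, rose from 0.95 ± 0.44 to 16.7 ± 0.50 CPM (SD, n = 3), a log2 fold change of 4.12, and of 7.67 in its most abundant row alone. Mkl1, which encodes the SRF coactivator that monomeric actin holds in the cytoplasm, rose by 1.19 on the log2 scale. Crebbp, a CREB coactivator, rose by 0.57 and Ets2 by 0.21. Srf itself, named after its value was seen, overlapped between groups at 107 ± 19.1 and 102 ± 27.5 CPM (log2 fold change -0.07, edgeR adjusted p = 0.837). In the same test 9 of 27 kinase and RAS pathway genes rose and 8 fell, with a median of -0.03, which is near the 28.1% and 27.0% of all tested genes that rose and fell. Sos1 (0.66), a RAS activator gene, rose, and Prkaca, the catalytic subunit of protein kinase A, fell by 1.08, as did the p38 gene Mapk14 by 0.47.

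Lists of genes that act on the members' proteins and mRNAs, and of genes known as their targets, are given as counts, to be read against the 28.1% of all tested genes that rose and the 27.0% that fell. Of 7 genes for EGR corepressors and JUN turnover, 3 rose and 2 fell, with Fbxw7, a ubiquitin ligase subunit that targets JUN, at a log2 fold change of 0.83 (3.49 in its most abundant row alone) and Cops5 (JAB1), which binds JUN, at -0.35. Their median log2 fold change was 0.24. Of 5 tested genes for proteins that bind AU-rich mRNA elements, 2 rose and 2 fell, with a median of -0.16. The decay factor genes Zfp36 (1.65) and Zfp36l2 (1.49) were those that rose, and Elavl1 and Hnrnpd fell. Among 18 tested genes known as AP-1 or EGR targets, 7 rose and 5 fell, with a median of -0.12. Hbegf, an EGF receptor ligand, rose from 25.9 ± 1.45 to 149.9 ± 8.16 CPM (SD, n = 3), and Dusp4, an ERK phosphatase gene, rose by 1.09 on the log2 scale. The fibronectin gene Fn1 fell from 3335 ± 112 to 301 ± 31.4 CPM and the ERK phosphatase gene Dusp5 fell by 1.86 on the log2 scale.

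Genes most like Fos, Jun and Egr1 were sought by the root mean square difference of centred log2 CPM over the 6 libraries. The nearest to Jun were Hbegf (0.042), Camk1g (0.054) and Dennd2d (0.072), and the nearest to Egr1 were LOC500124 (0.060), Dennd2d (0.078) and Trim26 (0.080). Tp53i11 (0.018), Nifk (0.025) and Golga7b (0.029) were nearest to Fos. With 2 groups of 3 libraries this measure mostly reflects the size of the group difference.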

How the data were processed

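Members and gene lists were chosen with earlier results of these data known. The authors deposited 1 table of raw counts per transcript row, with 1 column per library. Per the submitters' processing notes, the tools were HISAT, HISAT2 and DESeq2 and the builds hg19 and rn6, without their roles. Printed gene positions were read from the deposited table, and rn6 is the only rat build named. For the counting program, the strand setting and the annotation nothing is stated in the labels.

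Rows naming no gene were left out, and counts of the 35604 other rows were summed per gene. After filterByExpr, TMM factors were computed on counts in tested genes (15851326 to 25075476 per library), and groups were compared with edgeR 4.0.16 (glmQLFit, glmQLFTest, group as the only term) in R 4.3.3. P-values were adjusted by Benjamini-Hochberg over all 13363 genes, with a threshold of 0.05. The SE is the log2 fold change divided by the square root of F, and log2 CPM used a prior count of 2. No pair of replicates agreed within sampling noise (ratio of chi-square to degrees of freedom 45.0 to 58.6).

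Named genes are all members, the genes with the smallest adjusted p of each list past the threshold (8 for other immediate early genes, 4 or 2 for the others), ACTA2, Ins1, and the 3 genes nearest to Fos, Jun and Egr1 with a mean of at least 5 CPM. Some genes are not reported here. Other names were chosen after values were seen and are marked so, or complete a count of 5 or fewer. Alternatives were other normalisation factors, no filter, DESeq2 1.42.0, a replicate block, unnamed rows in library sizes, ACTA2 left out, the most abundant row and each library left out. Unnamed rows carry no coordinates, so adding those within a member's locus was not run. Floors cover counting error only.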

Additional observations from a re-analysis of the deposited data

How the results depend on the processing

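Egr1, Jun, Junb and Egr2 kept their direction and their call under all 14 alternatives, with log2 fold changes of 2.75 to 2.88, 2.53 to 2.67, 2.57 to 2.75 and 2.02 to 2.55. Fos passed with DESeq2 size factors (0.58), no normalisation factors (0.65), DESeq2 (0.58), unnamed rows in the library sizes (0.56) and the most abundant row (0.61). Fos, Egr1, Jun, Junb and Egr2 have 1 named row each. For them the most abundant row setting changed only other genes' counts and the scaling, and was no test of row choice. The sign turned for Fosb in its most abundant row (0.091). It turned for Srf with no normalisation factors (0.026). With 1 library left out Srf ranged from -0.20 to 0.14, turning when INS-MOCK replicate 3 or INS-SMA replicate 3 was left out, and Fosl1 ranged from -1.56 to 0.53, turning when INS-MOCK replicate 1 was left out. The cause was not tested. The count of other immediate early genes that fell was 4, and 2 to 5 when 1 library was left out (2 without INS-SMA replicate 1 or 2). Same-numbered libraries did not deviate together (correlations -0.01 to -0.03), so the numbers were not taken as pairs. With the replicate block 4 members rose, as without it, and 2 other immediate early genes fell in place of 4, while Jund was at -2.93 (adjusted p = 0.453). No normalisation factors moved the median of all genes from 0.03 to 0.13, and no low-count filter moved it to 0.27. Fos, Fosb, Fosl1, Fosl2, Egr2 and Egr3 rest on few reads, each at fewer than 4 CPM, and Egr2 and Egr3 passed the test at that depth.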
